A study of Mus musculus with 8 samples.

Results

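The 10 genes described here handle iron in the liver or carry the hormone that controls it, and they were read in mouse livers that make the Z variant of human alpha-1 antitrypsin, with and without the transcription factor CHOP. They are the hepcidin genes Hamp and Hamp2, transferrin (Trf), the transferrin receptors Tfr2 and Tfrc, the ferritin chains Fth1 and Ftl1, ferroportin (Slc40a1), hemopexin (Hpx) and ceruloplasmin (Cp). They were chosen by function, and all 10 were found among the 52551 rows of each count file. The PiZ group held 4 liver libraries of 6-week-old male C57BL/6 mice with the PiZ transgene, a human SERPINA1 gene whose Z protein misfolds and is kept in the endoplasmic reticulum of hepatocytes. The PiZ/Chop-/- group held 4 libraries of the same strain, sex and age that carried PiZ and lacked Chop, the gene Ddit3, so every liver here made the Z protein. The comparison asks what the loss of CHOP changes in such livers. Wild-type livers, which the design text also names, were not analysed here, so no value below is a change against healthy liver. The sources used here do not give the promoter that drives the transgene.

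Iron reaches cells bound to transferrin and enters through transferrin receptor 1, the product of Tfrc. Inside the cell it is stored in ferritin, a shell of heavy (Fth1) and light (Ftl1) chains, and it leaves through ferroportin, the exporter of iron in mammals. Hepatocytes secrete hepcidin, which binds ferroportin, blocks it and has it degraded, so that more hepcidin means less iron in plasma. Hepcidin transcription follows iron through BMP and SMAD signals, in which transferrin receptor 2 takes part, and follows inflammation through interleukin 6 and STAT3. During stress of the endoplasmic reticulum it has also been tied to CREB3L3 and to the balance of CHOP and C/EBP alpha. Mice carry a pair of hepcidin genes, and the peptide of Hamp, unlike that of Hamp2, is the established regulator of iron. When iron is scarce, iron regulatory proteins bind short hairpins in messenger RNAs, the iron responsive elements, which stabilises Tfrc RNA and halts translation of the ferritins.

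The promoters of Hamp and Hamp2 are shown because their levels diverged within libraries. They lie on the minus strand of mouse chromosome 7 (mm10), at chr7:30944030-30944279 for Hamp and chr7:30924182-30924431 for Hamp2, and the letters are RefSeq's (GRCm38.p6), 250 bases ending just before the start that RefSeq gives. The GENCODE model of Hamp2, used for the gene positions below, starts farther upstream, so this stretch lies inside it. Capitals mark the core of the BMP response element and, after it, a STAT site.
Hamp: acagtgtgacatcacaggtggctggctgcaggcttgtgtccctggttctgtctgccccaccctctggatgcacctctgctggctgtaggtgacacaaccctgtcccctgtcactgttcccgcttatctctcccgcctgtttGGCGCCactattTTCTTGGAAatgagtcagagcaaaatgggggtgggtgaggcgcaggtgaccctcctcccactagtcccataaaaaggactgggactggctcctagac
Hamp2: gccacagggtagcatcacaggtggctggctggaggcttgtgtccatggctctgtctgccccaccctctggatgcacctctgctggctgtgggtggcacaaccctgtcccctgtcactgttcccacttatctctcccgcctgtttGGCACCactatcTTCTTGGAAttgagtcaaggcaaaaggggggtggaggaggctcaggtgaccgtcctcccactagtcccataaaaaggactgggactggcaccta
Over 247 aligned bases the promoters were identical at 227, or 91.9%. The BMP element differed by the substitution G4A, with positions counted from 1 at the 5′ end of its 6 bases and the base of Hamp named first. The STAT letters TTCTTGGAA stood in both. Searched on both strands, the letters GGCGCC occurred in 9.59% and the pattern TTCNNNGAA in 7.02% of all 32851 RefSeq promoter windows of this length. The E-box CACGTG was found in 6.02% of windows and TGCAAT, the core of a C/EBP-ATF site, in 7.32%, and neither in these promoters. Of the members, 8 had a promoter entry, and the other genes with one held none of these letters except a Tfrc window with GGCGCC. A match is a description of letters, not a site in use.

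The iron responsive elements are shown because the genes that carry them are the ones through which cells answer to iron. A search of mm10 transcripts (GENCODE M21) for a 6-base loop CAGTGN closed by 5 paired bases, with an unpaired C 5 bases before the loop, found 7 elements in 4 members, with the loop in capitals. Such an element stood in a UTR of 123 of 21877 protein-coding genes, or 0.562%. The pattern is strict, so elements with another loop or imperfect pairing are missed. The 4 elements found in Tfrc lie in its 3′ UTR on the plus strand of chromosome 16, at chr16:32631219-32631248, chr16:32631598-32631627, chr16:32631663-32631692 and chr16:32631710-32631739. Those of Fth1 (chr19:9982732-9982761, plus strand), Ftl1 (chr7:45459778-45459807, minus strand) and Slc40a1 (chr1:45925464-45925493, minus strand) lie in 5′ UTRs.
Tfrc element 1: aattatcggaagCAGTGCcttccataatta
Tfrc element 2: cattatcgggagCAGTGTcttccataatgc
Tfrc element 3: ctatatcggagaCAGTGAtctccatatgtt
Tfrc element 4: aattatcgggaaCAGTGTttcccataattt
Fth1: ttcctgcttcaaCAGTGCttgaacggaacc
Ftl1: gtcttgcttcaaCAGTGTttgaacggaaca
Slc40a1: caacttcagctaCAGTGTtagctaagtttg

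Libraries held 1650260 to 3064385 counts, which bounds counting error only, and 8669 genes passed the filter on low counts. Levels are CPM, read counts scaled to a common total with the TMM method, and since the kit reads 3′ ends they need no division by gene length. Every fold change is a log2 value of PiZ/Chop-/- over PiZ from edgeR's quasi-likelihood test, and adjusted p-values are Benjamini-Hochberg values over all genes tested. The labels do not tie libraries to separate mice, so the p-values reflect only how far these libraries spread. Ddit3 checked the labels: it had 85.4 to 191 CPM in PiZ and 1.72 to 4.19 CPM in PiZ/Chop-/-, and was 48.5-fold lower (log2 fold change -5.60, SE 0.34, adjusted p = 2.35e-07). The human SERPINA1 row averaged 1451 ± 374 CPM with CHOP and 620 ± 70.9 CPM without it (SD, n = 4 each). It was 2.34-fold lower in PiZ/Chop-/- (log2 fold change -1.23, SE 0.22, adjusted p = 0.00873). The groups thus differed in transgene RNA as well as in CHOP, and the part of this in the values below was not tested. All 8 hepatocyte markers were detected, with a summed level of 42880 to 67878 CPM per library. The lowest mean correlation with its own group was 0.914, in PiZ library 4, and the others ran from 0.931 to 0.951, so results that rest on that library are given with and without it.

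None of the 10 iron handling genes passed the adjusted threshold of 0.05 in either direction, where 1.03% of all genes did, 0.335% higher and 0.692% lower in PiZ/Chop-/-. Adjusted p-values ran from 0.181 for Tfrc to 0.965 for Hamp. At an unadjusted p below 0.05 there were 4 members, Tfrc, Fth1 and Hpx with lower and Cp with higher values in PiZ/Chop-/-, against a background of 13.1% of genes. In 2 members, Fth1 and Cp, the libraries of the groups did not overlap, as in 7.88% of genes. Fold changes lay above 0 in 5 members and below 0 in 5, and the median of all genes was -0.0016. DESeq2 and limma-voom also called 0 members, while edgeR without a filter on low counts called Hamp2 (0.91, adjusted p = 0.0293) and Tfrc (-1.34, adjusted p = 0.00541). That setting called 357 of 19847 genes. The SE of Hamp2 was 0.25 under it against 0.44 with the filter, and that of Tfrc 0.33 against 0.42. The intervals set what these libraries could show: the narrowest, for Tfr2, spanned 0.717 and the widest, for Hamp, 4.28 on the log2 scale.

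**Figure D1:**
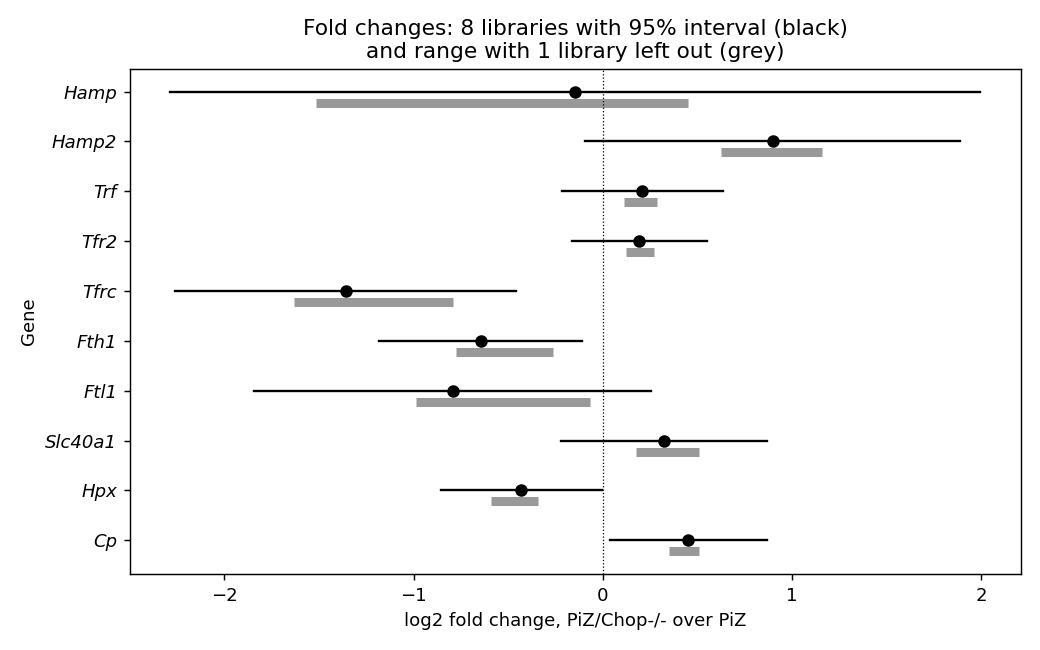
Log2 fold change of each gene, PiZ/Chop-/- over PiZ (horizontal axis), with its 95% interval (black) and the range of values when each of the 8 libraries is left out in turn (grey). The interval of Hamp runs from -2.29 to 1.99 and its grey bar crosses 0, while the grey bars of the other 9 genes stay on one side of 0.

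The genes spanned a wide range of levels. Trf was the most abundant, between 17907 and 28793 CPM per library, and Hpx followed at 1845 to 3242 CPM. Cp, Fth1, Ftl1, Hamp2, Tfr2, Hamp, Slc40a1 and Tfrc came next in order of mean level. The libraries of Trf and Hpx did not overlap, nor did those of Hpx and Cp, while each later pair of neighbours in this order overlapped. Together the 10 genes took 2.87% to 3.38% of a library's counts.

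**Figure D2:**
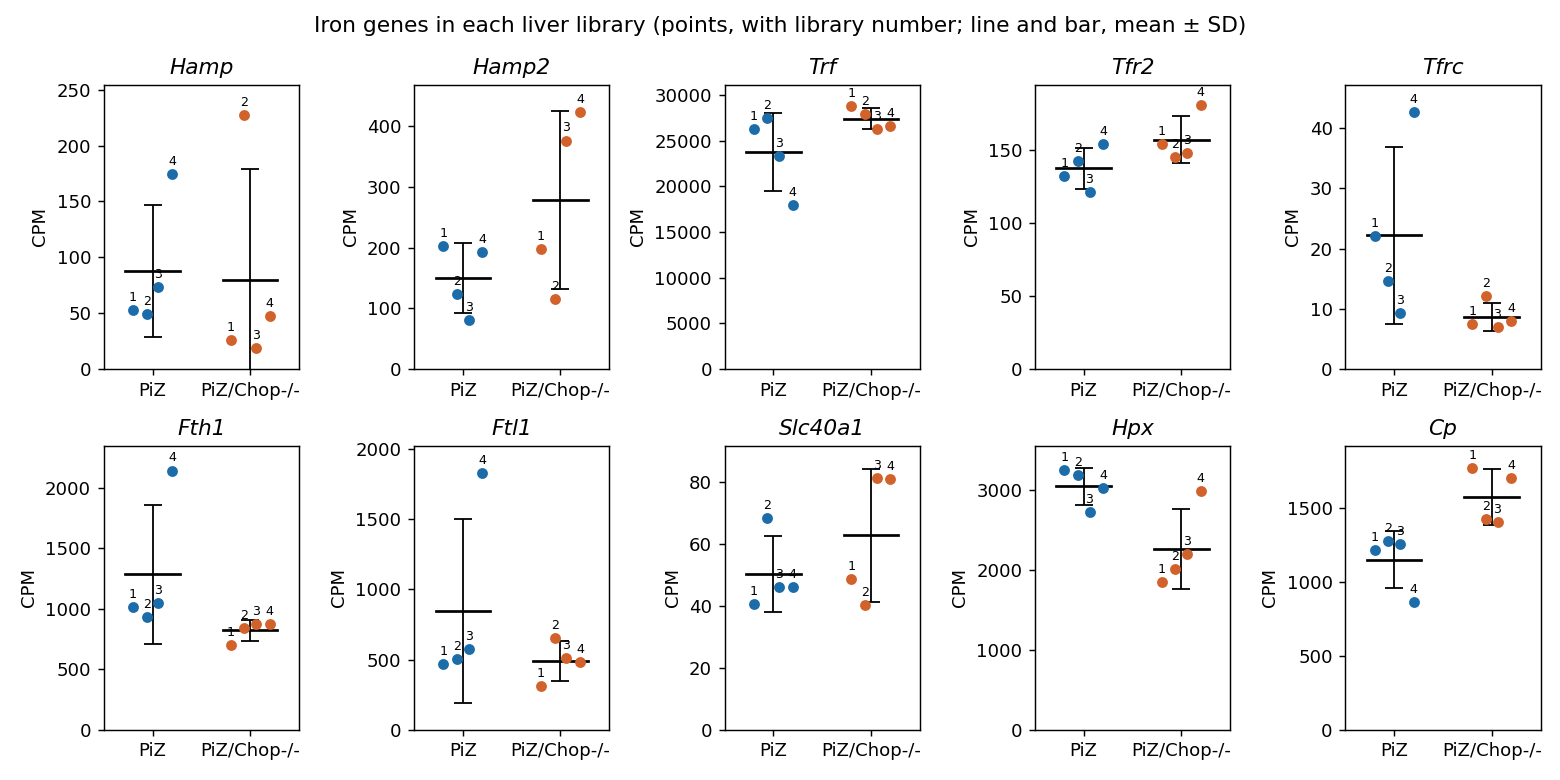
Level of each gene in CPM (vertical axes, each from 0) in the 4 PiZ (blue) and 4 PiZ/Chop-/- (orange) libraries, numbered, with the mean as a line and the SD as a bar. The lower end of the PiZ/Chop-/- bar of Hamp falls below the axis, and PiZ library 4 stands apart in Tfrc, Fth1, Ftl1 and Cp.

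Hamp (ENSMUSG00000050440, chromosome 7, 30942368 to 30944032, minus strand in mm10) encodes the active hepcidin. PiZ libraries 1 to 4 had 52.9, 49.1, 73.6 and 175 CPM of Hamp. PiZ/Chop-/- libraries 1 to 4 had 26.0, 228, 18.4 and 47.5 CPM. The highest and the lowest values of all 8 libraries were thus both in PiZ/Chop-/-, in libraries 2 and 3, and the groups overlapped. The means were 87.6 ± 59.1 (PiZ) and 79.9 ± 99.3 CPM (PiZ/Chop-/-; SD, n = 4 each). The log2 fold change of -0.15 (SE 0.90, adjusted p = 0.965) had a 95% interval from -2.29 to 1.99, so a difference of 2-fold either way was not detectable with this spread. Without PiZ/Chop-/- library 2 the value was -1.51 (adjusted p = 0.219), and without PiZ library 4 it was 0.45 (adjusted p = 0.894), so its direction rested on single libraries. In bulk liver, fewer cells of a type and less RNA per cell cannot be told apart, here and below.

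Hamp2 (ENSMUSG00000056978, chromosome 7, 30922372 to 30924681, minus strand) is the second mouse hepcidin gene, near Hamp on the same strand. Its PiZ libraries 1 to 4 had 202, 123, 81.4 and 193 CPM. The PiZ/Chop-/- libraries had 197, 114, 376 and 424 CPM. Libraries 3 and 4 of PiZ/Chop-/- lay above every PiZ library, and libraries 1 and 2 lay within the PiZ range. Mean levels were 149.8 ± 57.5 (PiZ) and 278 ± 146 CPM (PiZ/Chop-/-; SD, n = 4 each). The log2 fold change of 0.90 (SE 0.44, adjusted p = 0.418) had a 95% interval of -0.095 to 1.89. It stayed between 0.62 and 1.16 with any 1 library left out.

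Counts of Hamp2 exceeded those of Hamp in 7 of 8 libraries, all but PiZ/Chop-/- library 2. The share of Hamp in the sum of both was 20.8%, 28.5%, 47.5% and 47.5% in PiZ libraries 1 to 4. It was 11.7%, 66.6%, 4.65% and 10.1% in the PiZ/Chop-/- libraries, so 3 of these lay below every PiZ library and 1 lay above. The ratio of Hamp2 to Hamp had a mean log2 value of 0.88 ± 0.88 in PiZ and 2.33 ± 2.29 in PiZ/Chop-/- (SD, n = 4 each). The difference of 1.45 was within the spread of the libraries (exact two-sided permutation test, p = 0.257, 0.386 adjusted over 3 such tests, with 0.0286 the smallest p that 70 assignments allow). Leaving out PiZ/Chop-/- library 2, the 1 library of its group on the other side of PiZ, gave a difference of 2.56. The groups then no longer overlapped, which by itself fixes the unadjusted exact permutation p at 0.0286, also the smallest possible there. With any other library left out, the unadjusted exact permutation p was 0.2 to 0.543. Summed, the hepcidin genes came to 237 ± 96.9 (PiZ) and 358 ± 104 CPM (PiZ/Chop-/-; SD, n = 4 each). The log2 difference of the sum was 0.62 (exact two-sided permutation test, p = 0.171, adjusted p = 0.386). Over their last 300 transcript bases the genes were 88.4% identical and shared no run of 75 bases, the read length, so an error-free read of that length there differs between them. The sources used here do not say how reads with several matches were treated.

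**Figure D3:**
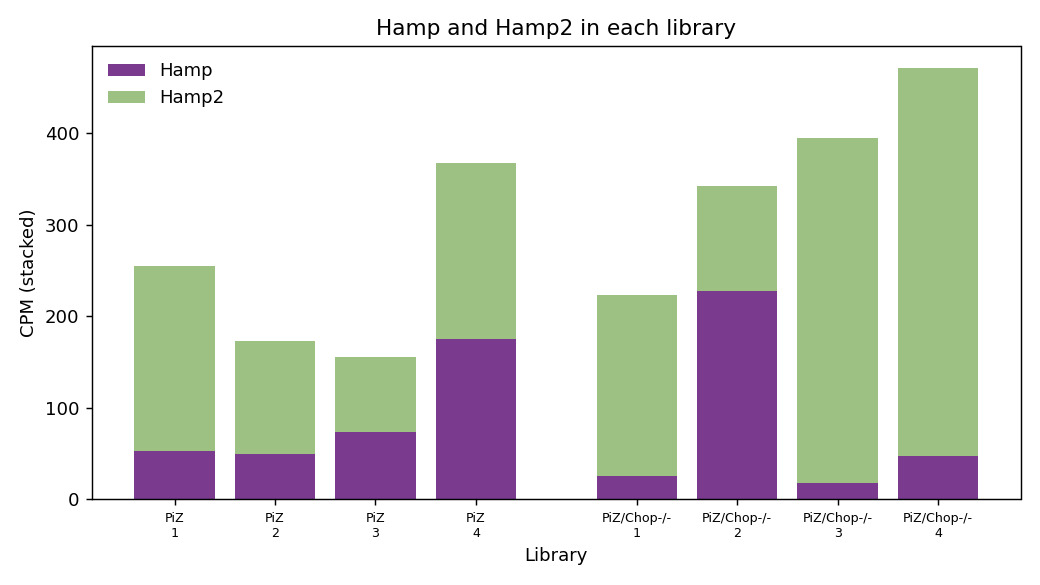
Hamp (purple) and Hamp2 (green) stacked in CPM (vertical axis, from 0) for each library. Hamp is the larger part only in PiZ/Chop-/- library 2, where it is 66.6% of the sum, and it is 4.65% of the sum in PiZ/Chop-/- library 3.

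The genes whose level ran most like that of Hamp over the 8 libraries, among 7439 outside the members whose log2 CPM averaged 3 or more, were Sec16a, Copg1 and Dynll2. Sec16a, which organises the exit sites of the endoplasmic reticulum, had a Pearson r of 0.97 and a Spearman rho of 0.98. Copg1, a subunit of the COPI coat, had 0.97 and 0.98, and Dynll2, a dynein light chain, 0.97 and 0.90. Without PiZ/Chop-/- library 2 and PiZ library 4, the libraries farthest from the median of Hamp, Pearson's r was 0.96, 0.90 and 0.96 in that order. These values describe genes picked for their likeness, so they carry no test.

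Transferrin, the plasma carrier of iron made by hepatocytes, differed by less than the spread of the PiZ libraries. Trf (ENSMUSG00000032554, chromosome 9, 103204001 to 103230444, minus strand) had 26273, 27465, 23299 and 17907 CPM in the PiZ libraries against 28793, 27942, 26293 and 26582 CPM in PiZ/Chop-/-. PiZ library 4 was the lowest of all and the other 7 lay close together. Means were 23736 ± 4263 and 27403 ± 1173 CPM (SD, n = 4 each). The fold change on the log2 scale was 0.21 (SE 0.20, adjusted p = 0.706) with a 95% interval from -0.22 to 0.63, and 0.11 without PiZ library 4, again not past the threshold.

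Tfr2 (ENSMUSG00000029716, chromosome 5, 137569840 to 137587481, plus strand) encodes the receptor through which hepatocytes sense iron-laden transferrin. Its PiZ libraries had 132, 142, 121 and 154 CPM and its PiZ/Chop-/- libraries 153.8, 145, 148 and 180.3 CPM. The groups overlapped within a narrow band. Means of 137 ± 14.1 and 157 ± 16.1 CPM (SD, n = 4 each) differed by 0.19 on the log2 scale (SE 0.17, adjusted p = 0.670). Its 95% interval, -0.17 to 0.55, leaves out a change of 2-fold in either direction. Without PiZ/Chop-/- library 4 the value was 0.12 (adjusted p = 0.862).

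Tfrc (ENSMUSG00000022797, chromosome 16, 32608920 to 32632794, plus strand), the receptor that takes up transferrin iron and the carrier of the 4 elements printed above, had the largest fold change of the 10 genes. PiZ libraries 1 to 4 had 22.1, 14.6, 9.32 and 42.7 CPM, from 36, 30, 29 and 90 counts. The PiZ/Chop-/- libraries had 7.43, 12.1, 6.95 and 7.92 CPM, from 16, 21, 14 and 17 counts. PiZ library 3 lay below PiZ/Chop-/- library 2, and the other 3 PiZ libraries lay above all of PiZ/Chop-/-. Mean levels were 22.2 ± 14.7 (PiZ) and 8.59 ± 2.35 CPM (PiZ/Chop-/-; SD, n = 4 each). Tfrc was 2.56-fold lower in PiZ/Chop-/- by the fit (log2 fold change -1.36, SE 0.42, unadjusted p = 0.00592, adjusted p = 0.181), with a 95% interval from -2.26 to -0.46. Without PiZ library 4 the value was -0.79 (adjusted p = 0.359). Tfrc is also high in immature red cells: of 12 other red cell markers 11 were found and 5 tested, all with fold changes above 0 (median 0.38). Their summed level was 354 to 834 CPM in PiZ, highest in library 4, and 344 to 1460 CPM in PiZ/Chop-/-, and Epb42 and Gata1 were at 0 counts in all libraries. Their part in the Tfrc values was not tested.

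The ferritin chains had lower means in PiZ/Chop-/-, in values set largely by PiZ library 4. Fth1 (ENSMUSG00000024661, chromosome 19, 9980598 to 9985098, plus strand) encodes the heavy chain, which oxidises iron for storage. It had 1019, 929.8, 1048 and 2146 CPM in the PiZ libraries against 697, 842, 876 and 872 CPM in PiZ/Chop-/-. The groups did not overlap, though PiZ libraries 1 to 3 sat just above the highest PiZ/Chop-/- library. From means of 1286 ± 575 and 822 ± 84.5 CPM (SD, n = 4 each) the fit gave a log2 value of -0.65 (SE 0.25, unadjusted p = 0.0217, adjusted p = 0.293; 95% interval -1.18 to -0.11). Without PiZ library 4 it was -0.27 (adjusted p = 0.532).

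Ftl1 (ENSMUSG00000050708, chromosome 7, 45457944 to 45459884, minus strand) encodes the light chain, which helps to lay down the iron core. PiZ libraries 1 to 4 had 471, 506, 574 and 1829 CPM, and PiZ/Chop-/- libraries 309.9, 654, 508 and 480.3 CPM. Apart from PiZ library 4 the PiZ values lay inside the wider PiZ/Chop-/- range. By the fit the log2 difference was -0.79 (SE 0.46, adjusted p = 0.513; 95% interval -1.84 to 0.26), from means of 845 ± 657 and 488 ± 141 CPM (SD, n = 4 each). It was -0.066 without PiZ library 4 (adjusted p = 0.932). Of the 75-base words in the last 300 bases of Ftl1, 112 of 226 (49.6%) also occur in transcripts of other genes, Ftl1-ps1 and Gm22133, so its count is uncertain. The other 9 members shared no such word.

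The balance of heavy and light chain was read within each library. The ratio of Fth1 to Ftl1 counts was 2.17, 1.84, 1.83 and 1.17 in PiZ and 2.25, 1.29, 1.72 and 1.82 in PiZ/Chop-/-. It was lowest in PiZ library 4 and PiZ/Chop-/- library 2, the libraries with the most Ftl1 in each group. The mean log2 ratios, 0.77 ± 0.38 and 0.79 ± 0.33 (SD, n = 4 each), differed by 0.022 (exact two-sided permutation test, p = 0.914).

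Macrophages, which recycle the iron of red cells, are rich in ferritin and ferroportin, so their markers are given beside these genes. Of 18 Kupffer cell and macrophage markers 17 were tested, 0 passed edgeR's adjusted threshold, 6 had an unadjusted p below 0.05 and 15 had fold changes below 0 (median -0.34). Their summed level was 1177 to 1658 CPM in PiZ and 896 to 1091 CPM in PiZ/Chop-/-, without overlap. Cd5l and C1qa weighed most in it, with means of 520 and 284 CPM in PiZ and 317 and 231 CPM in PiZ/Chop-/-. Taken singly, 2 of the 17 did not overlap, against 7.88% of all genes. Clec4f had a log2 fold change of -0.067, and the 2 markers above 0 were Timd4 (0.22) and Cd163 (0.60). The summed level was 1582 CPM in PiZ library 4, below the 1658 CPM of PiZ library 2. That library had the lowest Fth1 and the highest Slc40a1 of its group. None of the 18 was at 0 in all libraries. The part of these cells in the ferritin and ferroportin values was not tested.

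Slc40a1 (ENSMUSG00000025993, chromosome 1, 45908068 to 45926523, minus strand), ferroportin, is the target of hepcidin at the protein level. It had 40.6, 68.5, 46.3 and 46.0 CPM in the PiZ libraries against 48.8, 40.2, 81.4 and 81.1 CPM in PiZ/Chop-/-. Libraries 3 and 4 of PiZ/Chop-/- were the highest of the 8, as they were for Hamp2, while library 1 lay within the PiZ range and library 2 just below it. Means were 50.4 ± 12.4 and 62.9 ± 21.5 CPM (SD, n = 4 each). This gave a log2 value of 0.32 (SE 0.26, adjusted p = 0.630; 95% interval -0.22 to 0.86). It was 0.18 without PiZ/Chop-/- library 3 (adjusted p = 0.873) or library 4 (0.863), and 0.51 without PiZ library 2 (0.458) and 0.48 without PiZ/Chop-/- library 2 (0.399).

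Hemopexin and ceruloplasmin, plasma proteins that hepatocytes secrete, had values on opposite sides. Hpx (ENSMUSG00000030895, chromosome 7, 105591613 to 105600137, minus strand) encodes the scavenger of free haem. It had 3242, 3183, 2722 and 3017 CPM in the PiZ libraries against 1845, 2009, 2194 and 2981 CPM in PiZ/Chop-/-. Libraries 1 to 3 of PiZ/Chop-/- lay below all of PiZ, and library 4 lay within the PiZ range. Means of 3041 ± 233 and 2257 ± 503 CPM (SD, n = 4 each) gave a difference of -0.43 on the log2 scale (SE 0.20, unadjusted p = 0.0479, adjusted p = 0.376; 95% interval -0.86 to -0.0044).

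Cp (ENSMUSG00000003617, chromosome 3, 19957054 to 20009145, plus strand) encodes a copper enzyme that oxidises iron so that transferrin can bind it. It had 1214, 1276, 1258 and 862 CPM in the PiZ libraries against 1770, 1429, 1404 and 1703 CPM in PiZ/Chop-/-. Every PiZ/Chop-/- library lay above every PiZ library, and PiZ library 4 was the lowest. Means were 1153 ± 195 and 1577 ± 187 CPM (SD, n = 4 each). The log2 fold change of 0.45 (SE 0.20, unadjusted p = 0.0349, adjusted p = 0.341; 95% interval 0.036 to 0.87) stayed between 0.35 and 0.51 with any 1 library left out.

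Spread within groups was uneven between libraries. PiZ library 4 was the highest of its group for Hamp, Tfr2, Tfrc, Fth1 and Ftl1 and the lowest for Trf and Cp. It stood 1.19 (Hamp), 1.12 (Tfrc), 0.83 (Fth1) and 1.37 (Ftl1) above and 0.39 (Trf) and 0.40 (Cp) below the group's mean log2 CPM. PiZ/Chop-/- library 2 was the highest of its group for Hamp, Tfrc and Ftl1 and the lowest for Hamp2, Tfr2 and Slc40a1. The mean absolute deviation over the 10 genes was 0.60 in PiZ library 4 and 0.53 in PiZ/Chop-/- library 2, against 0.22 to 0.32 in the other 6 libraries. With both left out, a choice made after seeing the data, 0 members passed the threshold. Hamp then had a log2 fold change of -0.93 (adjusted p = 0.126), Hamp2 1.32 (0.144) and Tfrc -0.98 (0.194), by edgeR with Benjamini-Hochberg adjustment.

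**Figure D4:**
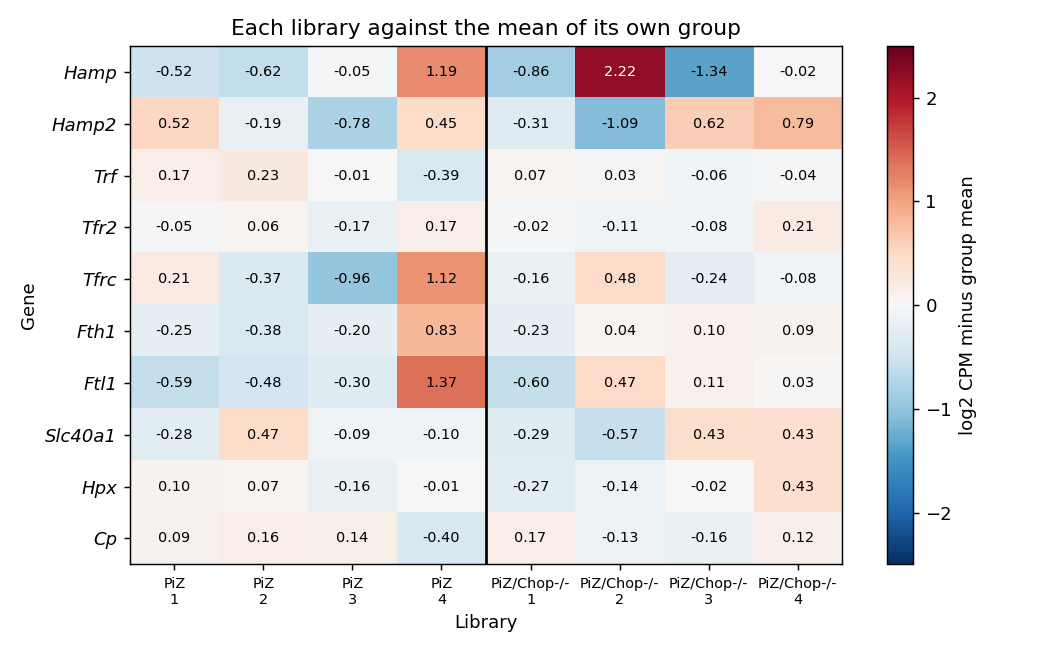
Difference of each library's log2 CPM (columns) from the mean of its own group, for each gene (rows), with red above and blue below the mean. Strong colours stand at Hamp in PiZ/Chop-/- libraries 2 (2.22) and 3 (-1.34) and at Ftl1, Hamp and Tfrc in PiZ library 4 (1.37, 1.19 and 1.12).

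The wider iron pathway was read in 6 lists of 116 other genes, of which 85 passed the filter on low counts. Only Lcn2 passed the threshold among them, where 1.03% of all genes did. An unadjusted p below 0.05 was found in 13, against 13.1% of all genes. DESeq2 called 6 of the 95 that it tested, and 208 of 10343 genes in all. Fold changes lay below 0 in 44 and above 0 in 41, with a median of -0.0092 against -0.0016 for all genes. In 8 of the 85, no library of one group fell within the range of the other, against 7.88% of all genes.

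Among the genes that set hepcidin, 27 of 42 were tested and none passed edgeR's threshold in either direction (2 at an unadjusted p below 0.05), with fold changes above 0 in 16 and below 0 in 11 (median 0.034). The ligands Bmp2 and Bmp4, which drive hepcidin through SMADs, had log2 fold changes of 0.52 (adjusted p = 0.402) and 0.94 (adjusted p = 0.391). Acvr2b, a receptor for such ligands, had 1.73 (adjusted p = 0.126), from low means of 3.11 and 10.2 CPM. Fgl1, a hepatokine that restrains hepcidin, had -0.67 (adjusted p = 0.361). Hfe and Hfe2 (hemojuvelin), partners in iron sensing, had -0.015 and -0.044, and Tmprss6, the protease that cuts hemojuvelin, had 0.17. Of the factors tied to hepcidin during inflammation and stress, Stat3 had -0.27 (adjusted p = 0.572), Creb3l3 0.29 (0.605) and Cebpa 0.39 (0.447). Of the readouts of BMP signalling, Id1 had 74 and Smad7 41 counts over all libraries, too few to test, as was the ligand Bmp6 with 13. Others in the list were tested and did not pass in edgeR: Id2 had 0.33 (adjusted p = 0.586), Id3 -0.57 (0.738) and Atoh8 0.034 (0.969). Erfe, the erythroid inhibitor of hepcidin, and Il6 had 0 counts in every library. For a single library, 0 counts leave room for an expected count of up to about 3 at 95% confidence.

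Of 30 genes for iron and haem transport 19 were tested, 1 passed lower and none higher, with 10 fold changes below and 9 above 0 (median -0.024). Lcn2, lipocalin 2, binds iron-laden siderophores and is made by hepatocytes in inflammation. It had 148, 86.0, 76.2 and 50.8 CPM in the PiZ libraries against 17.7, 8.05, 18.4 and 27.9 CPM in PiZ/Chop-/-, without overlap. It fell by 2.30 on the log2 scale (SE 0.38, adjusted p = 0.0113), from means of 90.3 ± 41.4 to 18.0 ± 8.13 CPM (SD, n = 4 each). The call was lost without PiZ/Chop-/- library 1 and without library 3. Slc25a37 (mitoferrin 1), which carries iron into mitochondria, had means of 53.6 ± 7.26 and 99.5 ± 24.3 CPM (SD, n = 4 each; log2 fold change 0.89, adjusted p = 0.0556). Lrp1, the receptor for haem bound to hemopexin, had 118 ± 16.5 and 202 ± 39.9 CPM (SD, n = 4 each; log2 fold change 0.78, adjusted p = 0.0670). Slc48a1, which moves haem out of lysosomes, had 459 ± 53.5 and 283 ± 28.4 CPM (SD, n = 4 each; log2 fold change -0.70, adjusted p = 0.0788). In each of these 3 genes the libraries of the groups did not overlap, and DESeq2 put all 3 past its threshold.

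The iron regulatory proteins, which read the hairpins printed above, did not pass the test in edgeR (1 at an unadjusted p below 0.05). All 3 genes of this system had fold changes above 0 (median 0.20), with Ireb2 at 0.47 (adjusted p = 0.376), Aco1 at 0.20 (0.707) and Fbxl5, which has Ireb2 protein degraded, at 0.14 (0.907).

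Among 14 genes of haem synthesis and breakdown 13 were tested and none passed in edgeR (3 at an unadjusted p below 0.05), with 8 fold changes below and 5 above 0 (median -0.020). Alas1, the rate-limiting enzyme of haem synthesis in liver, had 80.0, 116, 105 and 97.3 CPM in the PiZ libraries against 153, 129, 591 and 631 CPM in PiZ/Chop-/-. The groups did not overlap, and the high values were in PiZ/Chop-/- libraries 3 and 4, where Hamp2 and Slc40a1 were also highest. With such a spread in PiZ/Chop-/-, the log2 fold change of Alas1 was 1.91 (SE 0.56, adjusted p = 0.214). Blvrb, a biliverdin reductase, had means of 274 ± 11.4 and 173 ± 28.7 CPM (SD, n = 4 each; log2 fold change -0.66, adjusted p = 0.0906). DESeq2 put both past its threshold.

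None of the 8 copper handling genes or the 15 tested genes of iron-sulphur cluster assembly passed in edgeR (0 and 1 at an unadjusted p below 0.05), with medians of -0.094 and -0.082. The metallothioneins Mt1 and Mt2, small proteins that bind copper and zinc, had -1.26 (adjusted p = 0.521) and -1.63 (0.451). Ciapin1, an early factor in cluster assembly, had -0.64 (adjusted p = 0.288).

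**Figure D5:**
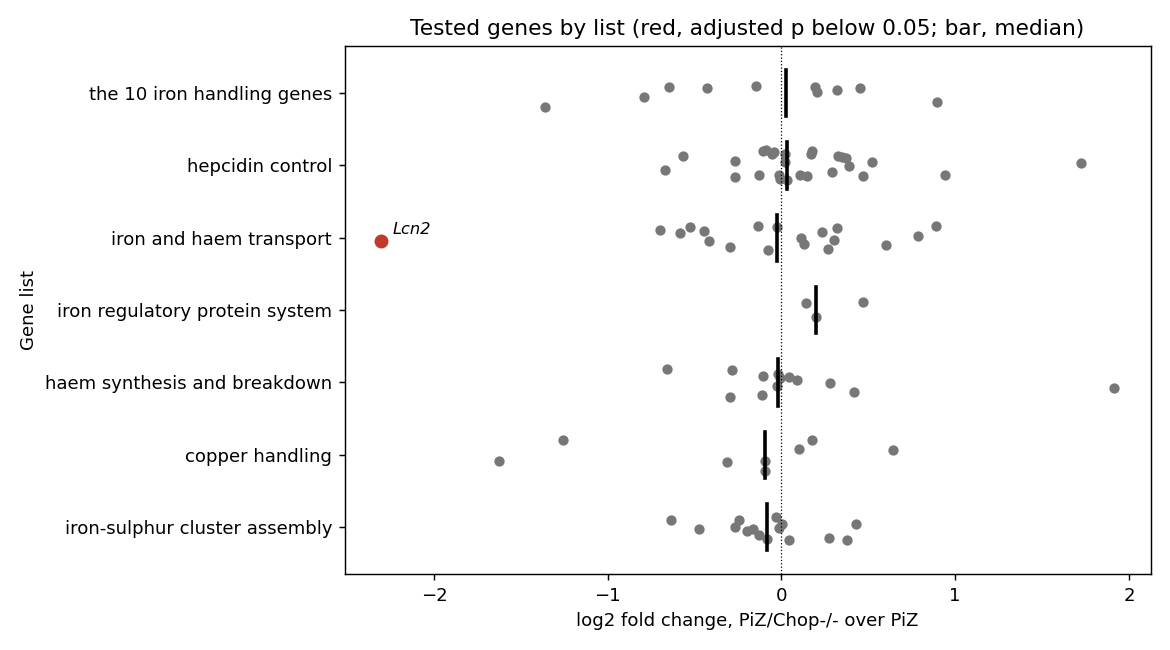
Log2 fold change, PiZ/Chop-/- over PiZ (horizontal axis), of every tested gene of the 10 and of the 6 wider lists (rows), with the median of each list as a bar. Points scatter on both sides of 0 in each list but the 3 iron regulatory genes, and Lcn2 at -2.30 (red) is the 1 gene past the adjusted threshold.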

How the data were processed

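Livers were sequenced with a 3′ mRNA kit (QuantSeq, single reads of 75 bases), per the labels' protocols. The files deposited by the authors hold raw counts for each gene, per the file headers. The submitters' processing notes name STAR, HTSeq and mm10. The sources used here do not give the annotation, strand setting or duplicate removal. Groups and numbers came from sample titles. Symbols came from GENCODE M21, which may not be the authors' release; it held 52403 of 52550 mouse IDs.

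Genes were tested with edgeR 4.0.16 (R 4.3.3): filterByExpr (minimum count 10), TMM, robust quasi-likelihood fit, no covariate, Benjamini-Hochberg adjustment at 0.05. Ratios and sums had exact permutation tests, with 2 counts added. Members and lists were chosen with earlier results of these data known. Named genes were all members, Ddit3, list genes past the threshold or up to 4 of lowest p, and the 3 most like Hamp. Hfe, Hfe2, Tmprss6, Cebpa, Creb3l3, Stat3, Bmp6, Id1, Id2, Id3, Smad7, Atoh8, Erfe and Il6 were named for known roles after their values were seen. The same holds for SERPINA1. Alternatives were other scalings, filters and tests (DESeq2 1.42.0, limma-voom 3.58.1), summed gene copies, a replicate block and omitted libraries.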

Additional observations from a re-analysis of the deposited data

Results flagged for a closer look

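In 4 of 26 groups of 4 libraries examined, 1 library lay farther from the rest than the 95% limit of Dixon's test allows. Chance gives about 1 in 20 for normally distributed values in independent groups. The genes were examined as CPM without logs, the hepcidin sum and the ratios reuse their counts, and all flags but that of Hamp came from PiZ library 4. That rate is thus a rough guide only. Hamp in PiZ/Chop-/- library 2 was the highest at 228 CPM, with the next at 47.5 CPM (gap 0.861 of the range). In PiZ library 4, Fth1 was the highest at 2146 CPM, with the next at 1048 CPM (0.903), and Ftl1 was the highest at 1829 CPM, with the next at 574 CPM (0.924). Cp was the lowest there at 862 CPM, with the next at 1214 CPM (0.851).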

How the results depend on the processing

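Of 198 fold changes of the 10 genes under alternatives, 190 kept their direction and side of the threshold. Another 2 passed it (Hamp2 and Tfrc without a filter on low counts, so that 1 member was called higher and 1 lower). In 6 the direction turned, all in the entry for Hamp. With 1 library left out Hamp ranged from -1.51 to 0.45. Among the 6 turned values, 0.59 was that of the summed counts of Hamp and Hamp2, so it describes the sum and not Hamp alone. The rest were 0.36 without PiZ libraries 1 and 4, and 0.45, 0.15, 0.19 and 0.032 without PiZ library 4 or PiZ/Chop-/- libraries 1, 3 or 4. The cause of these turns of Hamp was not tested. DESeq2 gave Hamp no adjusted p. Leaving out 1 library gave 0 members called, 0 to 5 other iron genes (0 when the omitted one was PiZ/Chop-/- library 1 or 3, 2 for PiZ library 4, 5 for PiZ/Chop-/- library 2) and 46 to 169 genes in all, against 1 and 89. Other iron genes called were 4 and all genes 357 without the filter (19847 tested), 6 and 208 with DESeq2, and 4 and 224 with PiZ library 4 and PiZ/Chop-/- library 2 both omitted, and 2 other iron genes were called with PiZ libraries 1 and 4 omitted. The hepcidin ratio ranged from 0.80 to 2.56 with 1 library left out. Its unadjusted exact permutation p was 0.0286 without PiZ/Chop-/- library 2 (2.56) and 0.2 to 0.543 without any other library. The hepcidin sum ranged from 0.45 to 0.86. The ferritin ratio, near 0, ranged from -0.16 to 0.16, was negative without PiZ library 4 (-0.16), PiZ/Chop-/- library 1 (-0.10) or 4 (-0.00031), and was -0.079 with PiZ libraries 1 and 4 omitted and -0.016 with PiZ library 4 and PiZ/Chop-/- library 2 omitted. The titles tie same-numbered libraries only by a number. Their deviations from the group means had correlations of 0.046, -0.051, 0.006 and 0.049, and 2 of 8 libraries correlated best with their own number. Such values cannot exclude a batch or litter shared within a number. With the replicate block 0 members, 2 other iron genes (Lcn2 and Mt2) and 76 genes in all passed. The exact p of the hepcidin sum, hepcidin ratio and ferritin ratio over 4 pairs was 0.25, 0.375 and 0.875. With so few pairs this exact test cannot fall below 0.05, so these p-values decide nothing. Depth limits Tfrc, which had 14 to 90 counts per library.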

Other observations

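Hepcidin and Lcn2 belong to the liver's response to inflammation, so the wider acute phase list is given here. It shares Lcn2, Hp and Mt2 with the iron lists. All 20 genes were tested. Lower values passed the adjusted threshold in 2, Lcn2 and Apcs, where 0.692% of all genes were called lower, and 0 passed higher. In 19 the fold change was below 0, against 50.2% of all genes, with a median of -0.28. Some of the 19 lay near 0, among them Itih3 (-0.012), Itih4 (-0.017) and Fga (-0.032). Apcs, serum amyloid P, had 477, 223, 231 and 372 CPM in PiZ and 91.1, 93.7, 118 and 124 CPM in PiZ/Chop-/-, without overlap, and fell by 1.61 on the log2 scale (SE 0.25, adjusted p = 0.00327 by edgeR with Benjamini-Hochberg adjustment). The summed level of the list was 23871 to 40775 CPM in PiZ and 23928 to 27779 CPM in PiZ/Chop-/-, lowest in PiZ library 4.

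Markers of other liver cells were read as values. Endothelial markers summed to 331 to 381 CPM in PiZ and 420.0 to 466 CPM in PiZ/Chop-/-, without overlap (13 of 15 tested, 9 above and 4 below 0, median log2 fold change 0.31). Taken singly, each of the 13 overlapped between the groups. Stellate cell markers summed to 411 to 528 CPM in PiZ and 286 to 451 CPM in PiZ/Chop-/- (8 of 13 tested, all below 0, median -0.34). Of 12 lymphocyte markers 0 were tested, of 9 neutrophil markers 2 and of 8 cholangiocyte markers 3. None of the tested markers of these 5 cell types passed edgeR's adjusted threshold, and 2 endothelial, 1 stellate cell, 1 cholangiocyte and 0 neutrophil markers had an unadjusted p below 0.05.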
